A study of Mus musculus with 17 samples.

Results

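Myrf and 6 genes of the myelin sheath (Mbp, Mog, Mag, Cnp, Mobp and Mal) were followed across hypothalamus arrays of control, streptozotocin-treated (STZ) and ob/ob mice, to ask whether the rise of Myrf was matched by the myelin genes. The members were all probe sets that the array's annotation assigns to 1 of these 7 symbols (of 12394 on the array), which were 19 of 22690 probe sets, and all 19 were bright enough to be tested. Myrf was picked for its higher signal in both models against control, so its differences from control, and those of the myelin genes set beside it, are a description. Counts of members past a threshold in these comparisons are printed beside the share of all probe sets and support nothing. The 17 arrays held 1 hypothalamus each, from male C57Bl/6 mice aged 9 weeks. The 6 controls were wild type and injected with vehicle, the 6 STZ mice were wild type and given a single intraperitoneal injection of STZ (200 µg/g body weight), which kills the pancreatic cells that make insulin, and the 5 ob/ob mice carried the ob/ob genotype, which lacks leptin. The labels state neither the interval between injection and dissection nor a blood glucose value, and they name no injection of the ob/ob mice. Values are MAS5 signals, the summary of a probe set's brightness, and differences are on the log2 scale with a standard error (SE) from limma.

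Myelin in the brain is made by oligodendrocytes, which wrap axons in stacked membrane. Myrf is a membrane-bound transcription factor that cleaves itself to release a part which enters the nucleus and binds near myelin genes, and oligodendrocytes need it to form myelin and to maintain it. Sox10 activates Myrf in maturing oligodendrocytes, and the myelin proteins made afterwards compact the membrane, join it to the axon or carry its lipids.

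The promoters of the myelin genes are shown first, with the letters of the motifs that Myrf and Sox10 are known to bind. RefSeq (GRCm38.p6) sequences were found for 5 of the 7 members, and those of 4 are printed, as the 250 bases before the start farthest upstream, 5′ to 3′ in the direction of the gene. Capitals mark the Myrf motif (CTGGCAC or CTGGTAC) and the SOX motif (ACAAAG or ACAATG), searched on both strands, so that a motif on the other strand appears as its reverse complement. The windows are chr17:37023399-37023648 (minus strand) for Mog, chr7:30914923-30915172 (minus strand) for Mag, chr11:100574689-100574938 (plus strand) for Cnp and chr9:120149492-120149741 (plus strand) for Mobp.
Mog: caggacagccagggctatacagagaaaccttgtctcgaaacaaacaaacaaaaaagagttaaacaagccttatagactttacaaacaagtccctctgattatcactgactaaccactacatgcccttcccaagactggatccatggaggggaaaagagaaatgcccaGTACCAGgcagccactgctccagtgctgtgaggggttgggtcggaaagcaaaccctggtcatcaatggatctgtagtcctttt
Mag: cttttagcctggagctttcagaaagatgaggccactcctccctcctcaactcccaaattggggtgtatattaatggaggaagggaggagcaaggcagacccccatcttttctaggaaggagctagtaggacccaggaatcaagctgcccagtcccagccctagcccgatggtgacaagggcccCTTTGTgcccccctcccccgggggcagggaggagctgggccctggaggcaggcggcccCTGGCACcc
Cnp: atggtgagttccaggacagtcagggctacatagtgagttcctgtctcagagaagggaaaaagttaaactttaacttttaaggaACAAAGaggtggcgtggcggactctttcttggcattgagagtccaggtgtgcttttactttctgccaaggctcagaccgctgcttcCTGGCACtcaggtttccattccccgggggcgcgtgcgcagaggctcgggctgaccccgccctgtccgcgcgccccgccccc
Mobp: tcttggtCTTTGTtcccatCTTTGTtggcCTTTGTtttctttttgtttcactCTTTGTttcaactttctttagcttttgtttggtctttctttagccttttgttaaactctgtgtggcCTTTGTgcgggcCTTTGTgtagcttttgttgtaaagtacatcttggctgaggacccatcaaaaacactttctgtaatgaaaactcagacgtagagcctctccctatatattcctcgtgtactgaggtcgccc

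The Myrf motif was in the windows of Mog, Mag and Cnp, once in each, 83, 9 and 81 bases before the start. Over 32817 windows of the same length in the table, 5.92% held it. The window of Mobp held 6 SOX motifs, all on the other strand, where 0.0914% of all windows held 4 or more. They lie in a stretch rich in T with near copies of the same letters, and whether they are separate sites was not tested. Mag and Cnp held 1 SOX motif each, and 25.2% of all windows held at least 1. The window of Mal held neither motif, and the E-box bound by Olig2 (CAGCTG) was in none of the 5 windows, against 13.0% of all windows. These are matches of letters and not measured binding.

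Myrf signals were higher in both models than in the controls. In the controls Myrf signals ran from 2322 to 3377 with a median of 2749. In STZ they ran from 3204 to 4072 with a median of 3834, and in ob/ob they were 4352, 3977, 3568, 3532 and 3914. The STZ and control groups overlapped in a single STZ array, and the 5 ob/ob arrays all lay above the highest control. The geometric mean was 2805 in control, 3718 in STZ and 3857 in ob/ob. The log2 difference from control was 0.41 ± 0.080 (SE, n = 6 and 6) in STZ, a fold of 1.33 with a 95% interval of 1.18 to 1.49. In ob/ob it was 0.46 ± 0.084 (n = 5 and 6), a fold of 1.38 with an interval of 1.22 to 1.55. These are the values Myrf was chosen on: among 7990 genes tested 0.375% had a larger log2 difference in STZ and 0.488% in ob/ob. Myrf has 1 probe set on the array, for which the annotation lists no accession, so there is no other probe set to set beside it. Both differences use the same 6 controls.

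**Figure D1:**
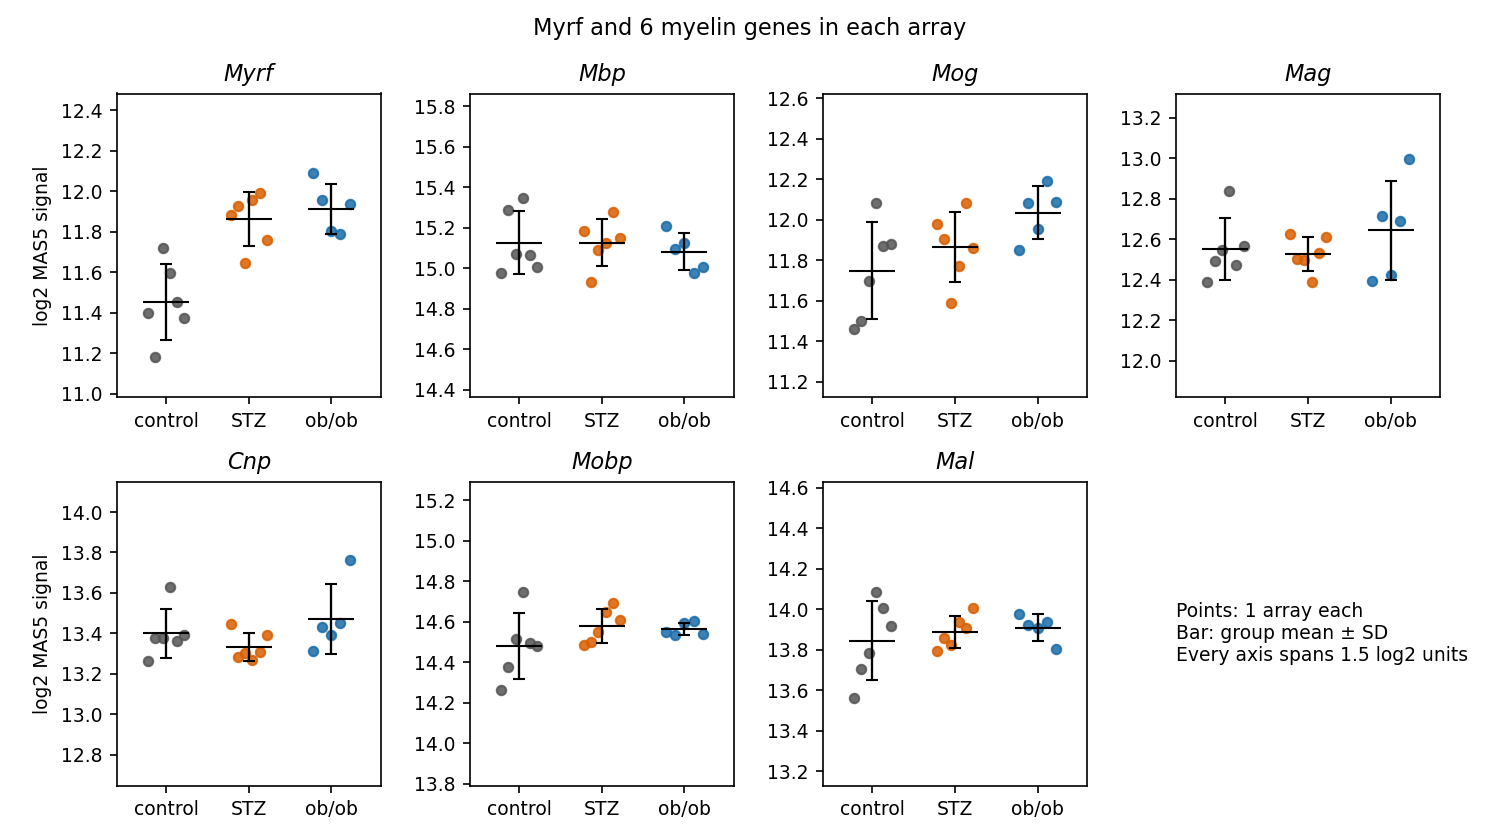
The log2 MAS5 signal of Myrf and of the representative probe set of each myelin gene is plotted for each array (points), with the group mean and SD (bars), and every panel spans the same range. Myrf is at a geometric mean of 2805 in control against 3718 in STZ and 3857 in ob/ob. For Myrf only ob/ob and control do not overlap, and in the other panels all groups overlap.

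The 6 myelin genes had smaller differences from control. Each gene is represented by its brightest probe set, those of the cross-hybridizing _x_at kind left aside where there is another. The log2 differences ran from -0.066 (Cnp) to 0.12 (Mog) in STZ, with 4 of 6 above 0 and a median of 0.023. In ob/ob they ran from -0.044 (Mbp) to 0.29 (Mog), with 5 of 6 above 0 and a median of 0.077. Leaving out each array in turn, an alternative added after the values were seen, moved the STZ median between -0.020 (without control 1) and 0.069 (without control 4), and the ob/ob median between 0.041 and 0.13 for the same arrays. Over all 7990 genes 51.7% were above 0 in STZ and 51.9% in ob/ob, with medians of 0.0044 and 0.0053.

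Mbp, the basic protein that holds the inner faces of the myelin membrane together, had group means closest together in control and STZ on its representative probe set. Its signals ran from 32259 to 41756 in control (median 34389), from 31262 to 39761 in STZ (median 36055), and were 37853, 34974, 35731, 32252 and 32968 in ob/ob. The groups overlapped throughout. The difference from control was 0.00024 ± 0.066 in STZ (95% interval -0.14 to 0.14) and -0.044 ± 0.069 in ob/ob (-0.19 to 0.099). Mbp has 8 probe sets, and their differences ran from -0.0064 to 0.19 in STZ and from -0.044 to 0.14 in ob/ob. The values farthest from 0 came from the pair of dimmer probe sets, 1425263_a_at (0.19 ± 0.15 in STZ and 0.094 ± 0.15 in ob/ob) and 1425264_s_at (0.11 ± 0.054 in STZ and 0.14 ± 0.057 in ob/ob). By mean signal the representative probe set stood at percentile 99.99 of the array. Those of Mobp, Mal, Cnp, Mag and Mog stood at 99.6, 98.4, 97.1, 93.2 and 87.7, and that of Myrf at 86.3. Whether the brightest signals still rise in proportion to the RNA was not tested, which limits the comparison of Myrf with the brighter myelin genes.

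Mog, a glycoprotein on the outermost myelin surface that appears late in maturation, was the myelin gene farthest above the controls. Its signals ran from 2823 to 4337 in control (median 3532), from 3083 to 4340 in STZ (median 3778), and were 3699, 4334, 3974, 4672 and 4361 in ob/ob. Of the ob/ob arrays 2 lay above the highest control and the others within the control range. The difference was 0.12 ± 0.097 in STZ (-0.087 to 0.32) and 0.29 ± 0.10 in ob/ob (0.072 to 0.50). With the level of neighbouring brain region markers as a covariate the ob/ob value was 0.066 ± 0.15, and the STZ value was -0.014. That level was higher in every ob/ob array than in every control, so in ob/ob this fit cannot tell the covariate from the group.

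Mag, which joins the innermost myelin layer to the axon, ran from 5371 to 7313 in control (median 5875) and from 5371 to 6315 in STZ (median 5868). In ob/ob its signals were 5386, 6730, 5498, 6601 and 8168, so that the spread in ob/ob covered nearly the whole control range and 1 array lay above it. Its difference was -0.024 ± 0.086 in STZ (-0.20 to 0.16) and 0.093 ± 0.090 in ob/ob (-0.096 to 0.28). Without ob/ob 5, the highest array, the ob/ob value was 0.0055, without ob/ob 1 it was 0.16, and without ob/ob 3 it was 0.15.

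Cnp, an enzyme of the cytoplasmic channels of myelin, ran from 9848 to 12679 in control (median 10643) and from 9888 to 11174 in STZ (median 10132). Its ob/ob signals were 10180, 11058, 10758, 11198 and 13921, with the same array, ob/ob 5, the highest. Cnp differed from control by -0.066 ± 0.066 in STZ (-0.20 to 0.071) and by 0.070 ± 0.069 in ob/ob (-0.074 to 0.21), and the ob/ob value was -0.0034 without ob/ob 5 and 0.11 without ob/ob 1. The other Cnp probe sets gave 0.042 and -0.10 in STZ and 0.078 and 0.093 in ob/ob.

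Mobp, a small basic protein of the compact sheath, ran from 19657 to 27520 in control (median 22997) and from 22930 to 26530 in STZ (median 24476). Its ob/ob signals were 23982, 23732, 24731, 24875 and 23827, the tightest group of any myelin gene, and all lay within the control range. The difference was 0.10 ± 0.059 in STZ (-0.023 to 0.22) and 0.083 ± 0.062 in ob/ob (-0.046 to 0.21). Mal, a proteolipid that sorts proteins and lipids to the myelin membrane, ran from 12115 to 17386 in control (median 14794) and from 14223 to 16478 in STZ (median 15119). Its ob/ob signals were 16152, 15512, 15384, 15678 and 14291, again within the control range. For Mal the difference was 0.045 ± 0.068 in STZ (-0.097 to 0.19) and 0.066 ± 0.071 in ob/ob (-0.083 to 0.21).

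The other probe sets of Mobp gave 0.038 and 0.064 in STZ and 0.051 and 0.12 in ob/ob, and that of Mal gave 0.081 and 0.096. Over all 18 myelin probe sets, 13 were above 0 in STZ and 13 in ob/ob, where 50.3 and 49.8% of all probe sets tested were. At an adjusted p under 0.05 (limma, Benjamini-Hochberg over 13576 probe sets) 0 of the 19 member probe sets passed in STZ, where 0.0516% of all did, and 1 of 19, Myrf, in ob/ob, where 0.125% did. The call of Myrf in ob/ob ended without control 1, 5 or 6 and without ob/ob 1, 2 or 5 (its log2 difference there was 0.45, 0.46, 0.44, 0.42, 0.45 and 0.45), and in STZ a call appeared without control 3 (0.46) or STZ 3 (0.45). At an unadjusted p under 0.05 the count was 1 of 19 in STZ, Myrf, against 8.24% of all, and 3 of 19 in ob/ob, against 11.9%: Myrf, Mog and Mbp 1425264_s_at. The groups did not overlap for 0 of 19 in STZ (0.567% of all) and for 1 of 19, Myrf, in ob/ob (1.91% of all). Since the members were chosen on these comparisons, nothing further is read from these counts.

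**Figure D2:**
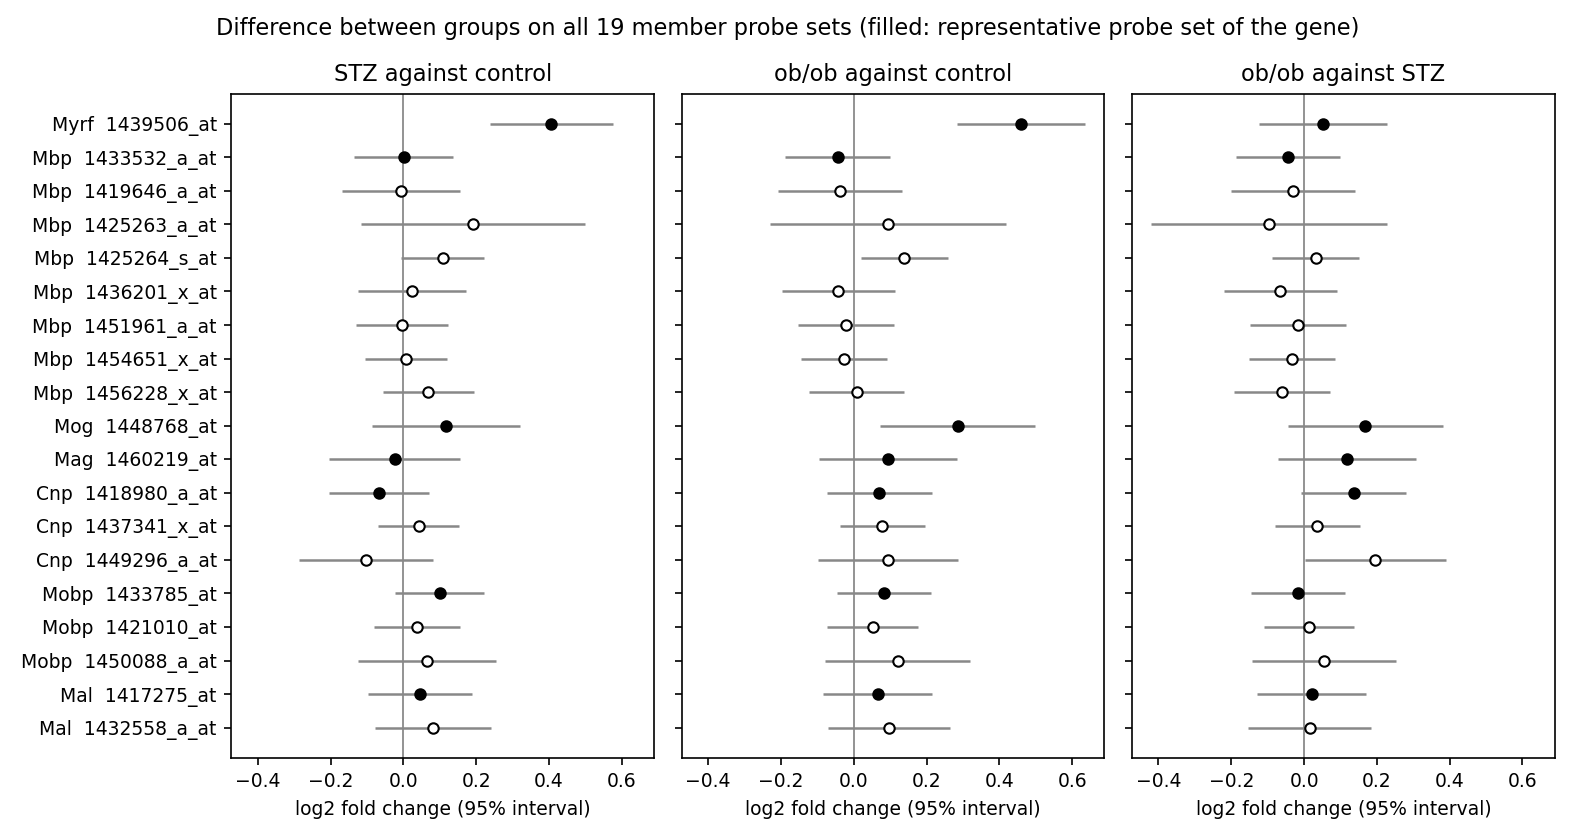
The log2 fold change of each of the 19 member probe sets (horizontal axis) is drawn with its 95% interval from limma for the 3 comparisons, filled for the representative probe set of a gene. In both comparisons with control Myrf stands at 0.41 and 0.46, and the myelin probe sets lie between -0.10 and 0.29.

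Set against the myelin genes of the same array, Myrf was still higher in the models. The difference was 0.38 against 0.41 on its own in STZ, and 0.37 against 0.46 on its own in ob/ob. The log2 signal of Myrf minus the mean log2 signal of the 6 myelin genes was -2.07 ± 0.19 (SD, n = 6) in control, -1.69 ± 0.12 (n = 6) in STZ and -1.70 ± 0.15 (n = 5) in ob/ob. Since signals of different probe sets are on different scales, only the change of this value between groups can be read. The change was 0.38 ± 0.092 (SE) in STZ and 0.37 ± 0.10 in ob/ob, and no test is given because Myrf was chosen for its rise. Of the STZ arrays 4 of 6 lay above the highest control, and of the ob/ob arrays 4 of 5. The mean of the 6 myelin genes itself differed from control by 0.028 ± 0.068 in STZ and by 0.092 ± 0.068 in ob/ob. With that mean as a covariate the difference of Myrf was 0.39 ± 0.080 in STZ and 0.42 ± 0.089 in ob/ob. In tissue RNA, more cells of a type and more RNA per cell cannot be told apart.

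**Figure D3:**
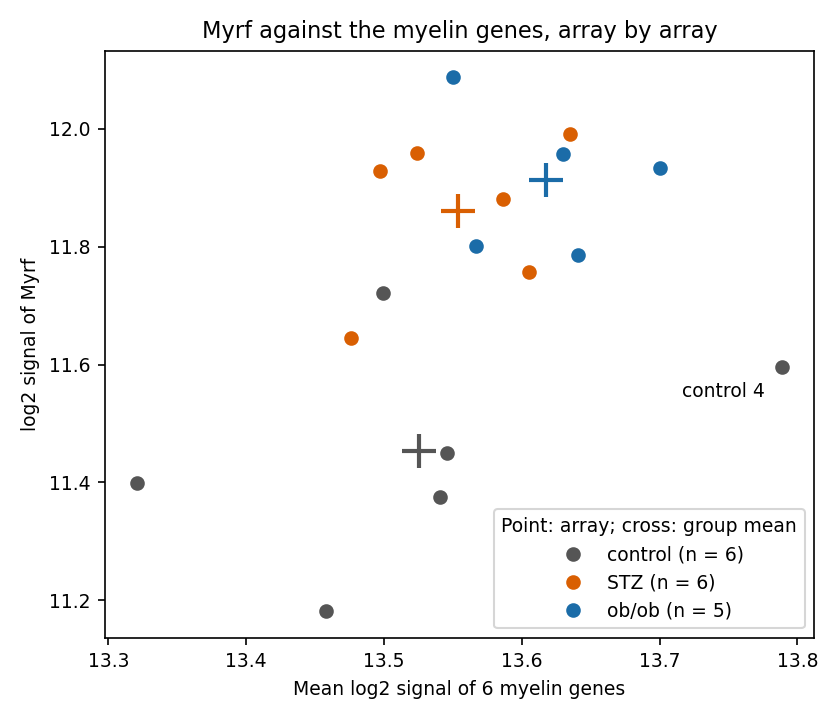
Each point is 1 array, with the mean log2 signal of the 6 myelin genes on the horizontal axis and the log2 signal of Myrf on the vertical axis, and crosses are group means. Along the Myrf axis all STZ arrays but 1 and all ob/ob arrays lie above the controls and the models overlap each other, while along the myelin axis the group means lie at 13.5 to 13.6 and control 4 is at 13.8.

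The comparison of ob/ob with STZ was not itself used to choose the members, and none of their probe sets passed the test in it. Myrf was picked for a rise in both models over the same controls, so its own difference here is not independent of that choice. By limma 0 of 19 passed an adjusted p of 0.05, where 0.0368% of all probe sets did, and the lowest adjusted p was 0.9996. At an unadjusted p under 0.05 there was 1 of 19, the Cnp probe set 1449296_a_at (0.20 ± 0.092), where 3.93% of all probe sets had one. The groups overlapped in all 19 (0.42% of all probe sets did not), and 11 of 19 were above 0, as were 49.9% of all. Myrf differed by 0.053 ± 0.084 (n = 5 and 6), with an interval of -0.12 to 0.23, so a difference between the models of up to 1.17-fold is within its error. By group mean the order of Myrf levels was control, STZ, ob/ob, with the last pair not apart beyond their spread. Mog (0.17 ± 0.10), Cnp (0.14 ± 0.069) and Mag (0.12 ± 0.090) had the highest values of the myelin genes in ob/ob against STZ, followed by Mal at 0.021 ± 0.071, Mobp at -0.016 ± 0.062 and Mbp at -0.045 ± 0.069.

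Among mice of the same group, Myrf was not seen to move with the myelin genes. After group means were removed, Pearson's r between Myrf and each myelin gene over 17 arrays was 0.39 for Mobp, 0.37 for Mog, 0.28 for Mal, 0.12 for Mbp, 0.098 for Mag and 0.071 for Cnp. Permutation within groups (two-sided, 100000 resamples) gave adjusted p-values of 0.641 to 0.800 over these 6 relations, from unadjusted values of 0.213 for Mobp and 0.214 for Mog to 0.800 for Cnp. Spearman's rho ran from -0.13 (Cnp) to 0.38 (Mobp), with permutation p-values of 0.163 to 0.802 before adjustment and adjusted values of 0.774 to 0.802. The 2 arrays farthest from the median of Myrf over all 17 arrays were control 2 and control 6. Without them r was 0.32 for Mobp, 0.29 for Mog, 0.19 for Mal, 0.33 for Mbp, 0.065 for Mag and 0.051 for Cnp. The group means removed here were still those of all 17 arrays, so these values are not purely within groups. Within the 6 controls r ran from -0.068 (Mbp) to 0.58 (Mobp), and within the 6 STZ arrays from -0.25 (Mag) to 0.74 (Mog), with exact permutation p-values of at least 0.0972. No r is given for the 5 ob/ob arrays, where the array highest in Myrf (4352) was the lowest in Mog (3699) and the array lowest in Myrf (3532) was the highest in Mog (4672). With this number of arrays a moderate relation may go undetected.

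The relations among the myelin genes within groups rested in part on a single array, and whether they were closer than those with Myrf was not tested. Over the 15 pairs of myelin genes the group-centred r ran from 0.086 (Mbp with Mag) to 0.94 (Mag with Cnp), with a median of 0.38, and the next pair was Mobp with Mal at 0.82. These are given as a description over 17 arrays that share their scaling. The array control 4 was the highest control in all 6 myelin genes, and the values without single arrays were added after the data were seen. Without control 4 the median over the pairs was 0.096, Mag with Cnp stayed at 0.91 and Mobp with Mal at 0.73, while Mbp with Mag was -0.23. Myrf without control 4 had an r of 0.30 with Mobp, 0.28 with Mog, 0.16 with Mal, -0.024 with Mbp, -0.045 with Mag and -0.093 with Cnp. Without ob/ob 5, the array highest in Mag and Cnp, the median was 0.53, and without both arrays it was 0.20, with Mag and Cnp at 0.82.

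The 5 genes most like Myrf over the 17 arrays were not among the 6 myelin genes. The 5 of highest Pearson's r, out of 7989 other genes, were Wdr13 (0.81), Pnpla7 (0.81), Slc2a1 (0.80), Msra (0.80) and Vps37c (0.79), and the differences between the groups are part of these values. The highest of so many values over 17 arrays are high in part by selection. In the same ranking Mog stood at place 200 (r of 0.57) and Mobp at 289 (0.53). The r was 0.33 for Mal, 0.15 for Mag, 0.059 for Cnp and -0.015 for Mbp. With group means removed, the 5 highest were Pikfyve (0.89), Lama5 (0.82), Fxyd5 (0.72), Rab43 (0.71) and Pus1 (0.71). In the ranking with group means removed Mobp stood at place 430 and Mog at 506. For the 6 myelin genes, the genes outside the members with the highest mean group-centred r were Rap1gds1 and Rhob (both 0.62), Septin4 (0.62), Olig1 (0.62), a lineage transcription factor, and Atp2a2 (0.59). The mean r of Myrf with the 6 was 0.22, and 1303 of 7983 genes outside the members had a higher one.

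Other genes of the oligodendrocyte lineage, grouped by role, showed no shift as lists. Of 102 genes in 6 lists 69 were tested, and 0 passed an adjusted p of 0.05 by limma in STZ, in ob/ob or in ob/ob against STZ. In STZ 34 were above 0 and 35 below (median -0.0017), with 1 higher and 3 lower at an unadjusted p under 0.05. These were 5.80% of the 69, against 8.24% of all probe sets. In ob/ob 33 were above and 36 below (median -0.0065), with 5 higher and 6 lower at that level, 15.9% of the 69 against 11.9% of all probe sets.

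Of the other structural myelin proteins 11 of 18 were tested, with medians of -0.0039 in STZ and 0.055 in ob/ob. The brightest were Tspan2, a tetraspanin, at 0.075 in STZ and 0.074 in ob/ob, Cldn11, the tight junction protein of myelin, at 0.021 and 0.15, and Omg, a myelin glycoprotein on oligodendrocytes and neurons, at -0.10 and -0.026. In myelin lipid synthesis and oligodendrocyte metabolism, with 16 of 19 tested, the medians were 0.0024 and -0.039. Its brightest genes Gstp1, a glutathione transferase, Plekhb1 and Qdpr, a pteridine reductase, stood at 0.063, 0.054 and -0.0064 in STZ and at 0.097, 0.0099 and -0.0045 in ob/ob. The genes listed as inhibitors of differentiation (13 of 16 tested) had medians of -0.012 and -0.014. Id4 and Id2, repressors of basic helix-loop-helix factors, stood at 0.058 and 0.036 in STZ and 0.056 and -0.0091 in ob/ob. Lgi1, the next brightest of that list, stood at -0.038 and -0.050, and whether it acts as an inhibitor was not tested. Precursor genes (9 of 15 tested) had medians of -0.0017 and -0.026, with Olig1 at -0.039 and -0.050, Ptprz1, a receptor phosphatase, at -0.046 and -0.026, and Pdgfra, the growth factor receptor that marks precursors, at -0.14 and -0.043. Growth signals (9 of 18 tested) had medians of 0.039 and 0.0049, with Fgfr3 at -0.018 and 0.0049, the kinase Fyn at 0.028 and 0.022 and Akt1 at 0.045 and 0.010.

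The transcription factors of the lineage (13 of 19 tested) had medians of -0.023 (STZ) and 0.010 (ob/ob) with the widest spread of the 6 lists, from -0.43 to 0.29 in ob/ob. Besides Olig1, the brightest were Smarca4, the ATPase of a chromatin remodelling complex, at -0.19 (STZ) and -0.20 (ob/ob), and the zinc finger factor Zfp24 at 0.090 and 0.25, none of which passed. The other probe sets of Zfp24 gave 0.12, 0.13 and -0.0061 in STZ and 0.14, 0.12 and 0.061 in ob/ob. Sox10, the activator of Myrf, is added after its values were seen. Its signals ran from 1597 to 2590 in control (median 2167), from 2302 to 3174 in STZ (median 2534) and from 2295 to 3093 in ob/ob (median 2612), with overlap between control and each model. Sox10 differed by 0.29 in STZ and 0.29 in ob/ob without passing (limma, adjusted p = 0.459 and 0.287), and its other 2 probe sets gave 0.096 and 0.18 in STZ and 0.097 and 0.062 in ob/ob (adjusted p = 0.681 to 0.877). Olig2 and Nkx6-2, also chosen after their values were seen, stood at -0.28 and -0.43 in ob/ob (limma, adjusted p = 0.0881 and 0.162) and at -0.090 and -0.21 in STZ (adjusted p = 0.766 and 0.675).

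**Figure D4:**
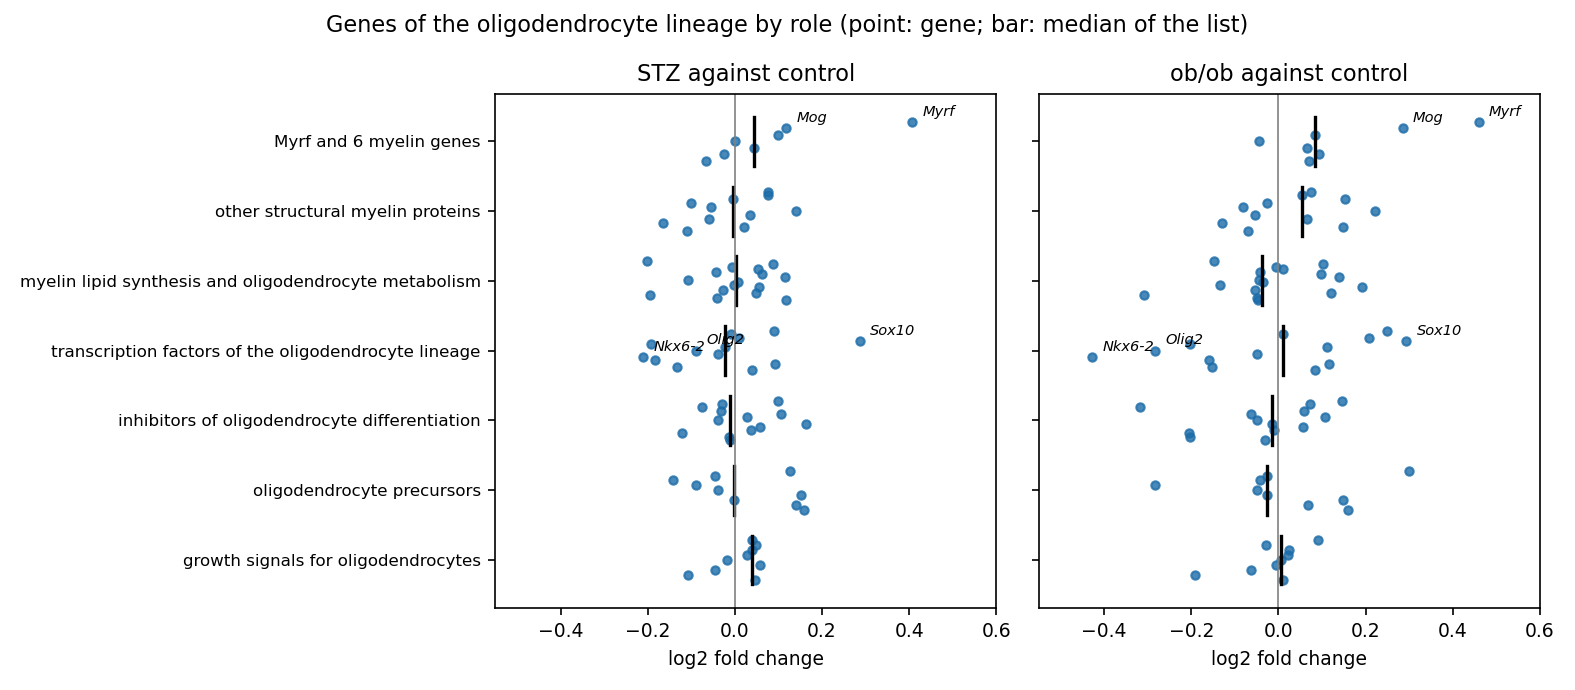
Each point is the log2 fold change (horizontal axis) of a gene on its representative probe set, by role list, for each model against control, and the bar is the median of the list. The list medians lie between -0.039 and 0.083, and Myrf is the point farthest to the right in both panels.

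Markers of other tissue moved with the groups beside these results. Of 21 markers of striatum, cortex and thalamus 10 were tested. All 10 were above 0 in ob/ob (median 0.28) and 9 in STZ (median 0.12), with 0 passing (limma). At an unadjusted p under 0.05 (limma) there were 5 in ob/ob and 1 in STZ, against 11.9 and 8.24% of all probe sets. Per array the mean log2 level of these 10 markers ran from 10.64 to 11.04 in control and from 10.86 to 11.16 in STZ. In ob/ob it ran from 11.08 to 11.27, so that the ob/ob arrays lay above all controls. The other 11 had no probe set with 1 symbol (6) or a signal under the filter (5). With that level as a covariate Myrf differed from control by 0.39 ± 0.10 in STZ and by 0.44 ± 0.13 in ob/ob, where it no longer passed (limma, adjusted p = 0.586), while the median of the 6 myelin genes, added after the values were seen, was -0.014 and -0.025. In ob/ob it left Mog at 0.066, Mobp at 0.045, Cnp at -0.024, Mag at -0.025, Mal at -0.031 and Mbp at -0.063. Since the covariate was higher in every ob/ob array than in every control, this fit cannot tell it from the group there. The part of the neighbouring-region markers in the differences was not tested beyond this fit. Of the hypothalamus markers 10 of 14 were tested. Nkx2-1 was under the filter, and Pmch, Agrp and Crh had no probe set with 1 symbol. In STZ 7 were lower and 3 higher (median -0.065), and in ob/ob 8 were lower and 2 higher (median -0.17). At an unadjusted p under 0.05 (limma) 1 was lower and 1 higher in STZ, and 5 lower and 1 higher in ob/ob. Of all probe sets 8.24% reached that level in STZ and 11.9% in ob/ob. Pomc passed as lower in STZ and in ob/ob (log2 -0.65 and -0.75, limma adjusted p = 0.0384 and 0.0121). The mean level of these markers ran from 11.54 to 11.76 in control, from 11.48 to 11.72 in STZ and from 11.30 to 11.54 in ob/ob. Markers of the labelled tissue were among the genes tested, such as Avp, Oxt and Hcrt. These 3 stood at 0.18, -0.061 and -0.15 in STZ and at 0.19, -0.25 and -0.50 in ob/ob. Of 8 pituitary markers 7 were under the filter and 1 had no probe set with 1 symbol. Schwann cells, which make the myelin of peripheral nerve, were represented by Pmp22 and Ngfr alone, at -0.050 and -0.10 in STZ and -0.025 and 0.021 in ob/ob. The astrocyte, neuron, microglia and endothelium lists had medians of 0.0032, -0.045, -0.0054 and -0.031 in STZ and of 0.029, -0.051, -0.070 and -0.086 in ob/ob. Above 0 were 5 of 10, 3 of 11, 3 of 7 and 3 of 8 of their tested genes in STZ. In ob/ob these counts were 8, 2, 0 and 2, and 0 genes of these lists passed in either model (limma). For all 17 arrays the 3′ minus 5′ log2 signal of the Gapdh control probe sets lay between -0.49 and -0.37, and the median signal between 638 and 708. For the b-actin control probe sets the 3′ minus 5′ value lay between 0.25 and 0.52. Control 4 had the lowest b-actin value and the lowest median signal. The limma p-values set each group difference against the spread between these arrays within groups, moderated over the probe sets tested. Those of the correlations come from permutation of these arrays within groups.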

How the data were processed

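Per the submitters' processing notes the authors summarised each array with MAS5, and the deposited unit is intensity, 1 signal per probe set. The MAS5 version, scaling target and detection calls are not given in the sources used here. The 2% trimmed mean of every array was 1500.4. After removal of 64 control probe sets, log2 signals were fitted for the 13576 probe sets above the 40th percentile of mean signal (a geometric mean of 435). Symbols came from GEO's platform annotation. A model of 3 group means over 17 arrays was fitted with limma 3.58.1 (lmFit, eBayes with a trend) in R 4.3.3, adjusted by Benjamini-Hochberg over all probe sets tested. The procedure was tested on simulated data. The members and gene lists were chosen with earlier results of these data known. The text names every member, the 3 brightest genes of each role list, those past the threshold, and the 5 genes most like Myrf or the myelin genes. Other genes, single markers included, were chosen after their values were seen. Precision is limited by the number of arrays. Alternatives covered scaling, filter, offset, variance trend, groups in the fit, a replicate block, 2 covariates, the mean of a gene's probe sets and leaving out each array.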

Additional observations from a re-analysis of the deposited data

Results flagged for a closer look

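In 4 of 60 groups of arrays checked, where chance gives about 3, 1 array stood apart from the others of its group by Dixon's criterion. On the Mbp probe set 1419646_a_at STZ 2 had a signal of 28761, while the other STZ arrays lay between 33249 and 35077. On the Mbp probe set 1451961_a_at ob/ob 5 had 25689 and the other ob/ob arrays 23140 to 23464, and on the Mobp probe set 1421010_at the same array had 19688 against 16843 to 17463. On the Cnp probe set 1418980_a_at control 4 had 12679 against 9848 to 10750 in the other controls.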

How the results depend on the processing

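The difference of Myrf from control kept its sign and stayed within 1 SD of its value under every alternative run, from 0.35 to 0.46 in STZ and from 0.41 to 0.51 in ob/ob. Its call in ob/ob also ended with no variance trend, with only the 2 groups, with the replicate block and with each covariate. Probe sets past the threshold in STZ numbered 7, and 0 with the neighbouring-region covariate (limma; 982 at an unadjusted p under 0.05). In ob/ob they numbered 17, and 32 after quantile normalization, 6 with only the 2 groups and 0 with that covariate (856 unadjusted). In ob/ob against STZ they numbered 5, and 3 with a filter at the 60th percentile and 1 each with no filter, only the 2 groups, the replicate block and the covariate. Leaving out each array gave 0 to 18, 8 to 43 and 1 to 9. In ob/ob against STZ Mbp was 0.00088 and Mobp 0.032 after quantile normalization, Mobp 0.018 with the mean of its probe sets and -0.036 to 0.0066 when arrays were left out, and Mal -0.018 with the covariate. Leaving out each array, the correlation of Myrf ran from -0.024 to 0.41 with Mbp, from -0.045 to 0.30 with Mag and from -0.093 to 0.23 with Cnp, the lowest each time without control 4. The cause of these changes was not tested. Replicate numbers share only a number: deviations of same-numbered arrays correlated at -0.16 to 0.11, and with the replicate block Myrf was 0.41 ± 0.088 in STZ and 0.44 ± 0.094 in ob/ob.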
